A study of Brassica napus with 18 samples.

Results

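Chromosomes A07 and C06 of oilseed rape (Brassica napus) are described here across the shoot apices of 6 accessions. Their members were taken from the gene model identifiers, which carry the chromosome and a running gene number: 4189 models begin with BnaA07T and 4910 with BnaC06T, together 9099 of 107233 models in the table. The numbers run from 1 to 3904 on A07 and from 1 to 4597 on C06, and 285 and 313 models share a number with a neighbour through a dot suffix. At least 1 count was found in 3207 A07 models and 3489 C06 models, and 982 and 1421 models had none.

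The study set accessions with different haplotypes of BnaC3.LFY against each other, LFY being the LEAFY transcription factor of floral meristem identity. R5044, R5159 and R5161 carry haplotype 1, and R4168, R4210 and R4817 carry haplotype 2. Each accession gave 3 poly(A) RNA-seq libraries from shoot apices of field-grown plants, 18 in all, with total counts between 21960992 and 41459636. The labels name no plants, plots or ages. Where a test uses the spread between libraries, its p-value speaks of these samples alone, and that spread may be technical. Each haplotype is represented by different accessions, and the haplotype cannot be told apart from the rest of their genetic background.

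Brassica napus is an allotetraploid that joins an A subgenome, related to Brassica rapa, with a C subgenome, related to Brassica oleracea. Chromosomes A07 and C06 descend largely from the same ancestral blocks and are therefore homoeologous, although the gene order and the numbering differ between them. Homoeologous chromosomes of rapeseed can exchange segments at meiosis, and such an exchange can replace a stretch of one chromosome with a copy of its partner. No table pairs the A07 and C06 models here, and copies similar in sequence may share reads, which touches every gene and segment named.

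Both chromosomes were expressed along their whole length. An average of at least 1 CPM (counts scaled to the library total, not to gene length) over the 18 libraries was reached by 2036 A07 models (48.6%, the second highest share of 19 chromosomes) and by 2112 C06 models (43.0%, place 10). Of these expressed models the median level was 8.77 CPM on A07 and 8.68 CPM on C06. Summed over the chromosome and divided by its models, expression came to 10.97 CPM per model on A07 and 11.6 CPM on C06, which was the highest value of the 19 chromosomes.

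In windows of 100 gene numbers, A07 was the more even chromosome. Its 39 full windows held between 31 expressed models (numbers 401 to 500) and 70 (3801 to 3900), with a median of 53. The summed level of an A07 window ranged from 458 CPM (401 to 500) over a median of 1165 to 2529 CPM (1601 to 1700). The 45 full windows of C06 held between 17 expressed models (1 to 100) and 60 (2301 to 2400), with a median of 46. Its summed levels ranged from 210.2 CPM (1 to 100) over a median of 1021 to 4528 CPM (801 to 900).

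In the tallest C06 windows, most of the sum came from a single gene. Such a gene held 56.3% of the CPM of window 801 to 900, 64.7% of window 1201 to 1300, and 58.5% of window 4201 to 4300. The 49 most abundant C06 models (the top 1%) held 38.9% of the chromosome's CPM, and the 42 most abundant A07 models held 27.3%.

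**Figure D1:**
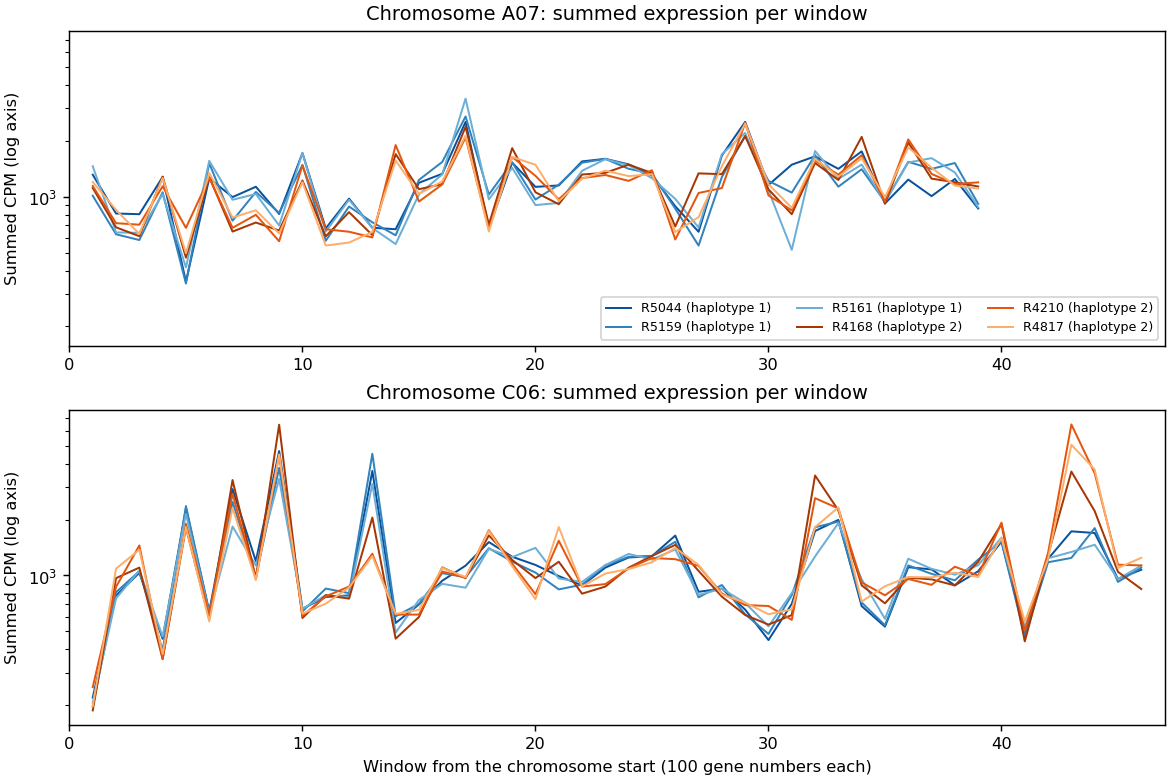
Summed CPM (log axis) in each window of 100 gene numbers from the start of A07 (top) and C06 (bottom), 1 line per accession as the mean of 3 libraries. The 6 lines follow each other in most windows but part in some, such as C06 4201 to 4300, with 1243 CPM in R5159 and 6499 CPM in R4210. The C06 windows that stand highest include 801 to 900, with a mean of 4528 CPM over the accessions.

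To find stretches that were low or high in 1 accession, the level of each gene in an accession was set against the median of the other 5 accessions on the log2(CPM + 0.1) scale, on which changes of weakly expressed genes look smaller than they are. The median over the genes of a window (mean of at least 0.5 CPM, at least 15 genes) is called the window value, centred on the median of all expressed chromosome genes in that accession. A window value of -1 or less was called low and one of 0.4 or more high. These windows are a description and carry no test.

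Neither chromosome held a low window in any accession: 0 of 510 window values were low, against 2.47% of all window values over the genome. By accession the genome's share of low windows was 4.26% in R5044, 1.97% in R5159, 3.53% in R5161, 1.77% in R4168, 3.01% in R4210 and 0.312% in R4817. High values numbered 7 of 510 (1.37%), against 5.07% over the genome. Window values lay between -0.79 and 0.57, and 82.9% of them were within 0.2 of 0, against 71.0% on the other chromosomes. Even at -0.5 or less there were 3 values (0.588%), all on C06, against 4.35% on the other chromosomes. The SD of the window values was 0.176 on A07, the sixth smallest of 19 chromosomes, and 0.153 on C06, behind only C07.

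**Figure D2:**
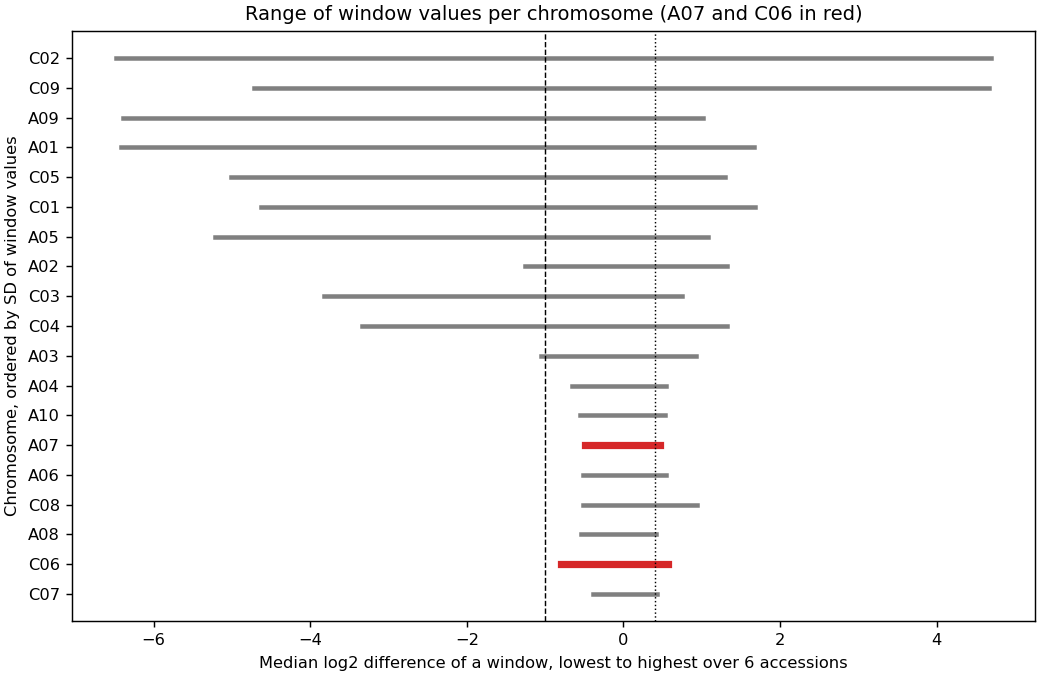
Range of window values (median log2 difference of a window of 100 gene numbers from the other 5 accessions) for each chromosome, from the lowest to the highest over 6 accessions, with chromosomes ordered by the SD of their window values. The dashed line marks -1 and the dotted line 0.4; A07 and C06, in red, span -0.79 to 0.57 together and do not reach the dashed line.

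The 7 high values lay in 4 accessions and 6 windows. R5044 had 2 on A07, at numbers 101 to 200 (0.41) and 601 to 700 (0.42), against 5.3% high windows over the genome. R5161 had 1 on C06, at 1901 to 2000 (0.47; genome 4.78%). R4168 had 2 on A07, at 1101 to 1200 (0.41) and 3801 to 3900 (0.46), and 1 on C06, at 3301 to 3400 (0.56; genome 4.98%). R4210 was high in the same C06 window, at 0.57 (genome 6.54%). R5159 (genome 3.95%) and R4817 (genome 4.88%) had none, with highest values of 0.38 (A07, 801 to 900) and 0.24 (C06, 3401 to 3500).

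Of the 3 values at -0.5 or less, R4168 had the lowest, -0.79 at the end of C06 (4501 to 4597), which was the 20th lowest of the 963 windows of the genome in that accession. The other 2 were in 1 window, C06 3301 to 3400, at -0.70 in R5044 and -0.53 in R5159. On A07 the lowest window value was -0.497, in R4210 at 2501 to 2600. In R4168, the value of -0.79 at the end of C06 thus came with a high window at the end of A07.

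**Figure D3:**
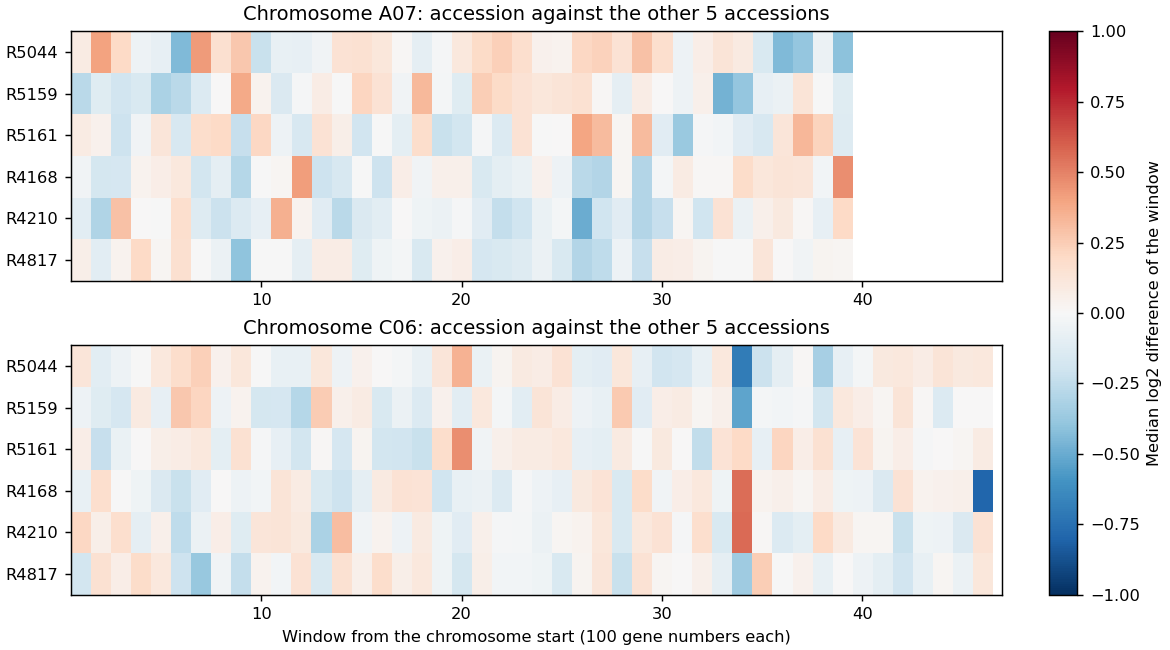
Window values (colour, median log2 difference from the other 5 accessions, blue below and red above 0) for 39 windows of A07 and 46 of C06 in the 6 accessions. Most cells are pale; the last C06 window of R4168 is the deepest blue at -0.79, the last A07 window of R4168 is red at 0.46, and C06 window 34 (3301 to 3400) is blue in R5044 and R5159 and red in R4168 and R4210.

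In R4168 the end of C06 was low and the end of A07 was high. Windows of 20 gene numbers, looked at after the data were seen, placed the low stretch at C06 4541 to 4580 and the high stretch at A07 3841 to 3900. Their bounds were set from R4168's own values, so the levels and the calls of R4168 there are a description. The C06 end has 42 models, of which 29 met the 0.5 CPM minimum, and the A07 end has 62 models, of which 46 met it. In bulk tissue, fewer cells of a type and less RNA per cell cannot be told apart.

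Summed over the C06 end, the 3 libraries of R4168 gave 75.9, 71.7 and 67.2 CPM. R4210 gave 228, 221 and 235 CPM. The accession means were 305 ± 7.67 CPM in R5044, 308 ± 10.1 in R5159, 314 ± 6.75 in R5161, 71.6 ± 4.38 in R4168, 228 ± 7.34 in R4210 and 329 ± 17.6 in R4817 (SD, n = 3 libraries each). Every R4168 library lay below every R4210 library, and these below all 12 libraries of the other accessions, so that R4168 stood at 0.232 times the median of the others and R4210 at 0.740 times.

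At the A07 end the order was the other way round. The libraries of R4168 gave 568, 634 and 666 CPM, and those of R4210 489, 494 and 492 CPM. Accession means were 353 ± 11.9 CPM in R5044, 370.1 ± 20.6 in R5159, 325 ± 21.9 in R5161, 622 ± 50.2 in R4168, 492 ± 2.44 in R4210 and 391 ± 16.1 in R4817. No R4168 library overlapped with another accession, and R4168 stood at 1.68 times and R4210 at 1.33 times the median of the others. Gene by gene, the median difference in R4210 was only 0.24 on the log2 scale, with 27 of 46 genes above the others. Its window values were 0.09 over 3841 to 3860, -0.10 over 3861 to 3880 and 2.46 over 3881 to 3900.

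Added together, both ends gave 694 ± 45.9 CPM in R4168, which lay inside the span of the other accessions, from 638 ± 17.7 in R5161 to 719.8 ± 6.99 in R4210. Only R4210 and R4817 lay above R4168, and their C06 ends include 3 genes with no counts in the other 4 accessions, described below. The sums were not formed without these genes, so the place of R4168 inside the span rests on unlike gene sets. Its mean lay above those of the haplotype 1 accessions, with 659 ± 16.6 CPM in R5044 and 678 ± 30.6 CPM in R5159. The A07 end took 89.6% ± 1.33 of the sum of both ends in R4168 and 68.3% ± 0.736 in R4210 (SD, n = 3 libraries). In the other 4 accessions it took between 50.8% ± 2.12 (R5161) and 54.6% ± 0.630 (R5159). The 3 C06 genes lower the A07 shares of R4210 and R4817, which were not formed without them. Over the whole last windows (C06 4501 to 4597 with A07 3801 to 3904) the A07 share was smaller but in the same order, with 57.6% in R4168, 52.7% in R4210 and 43.8% to 48.0% in the others.

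**Figure D4:**
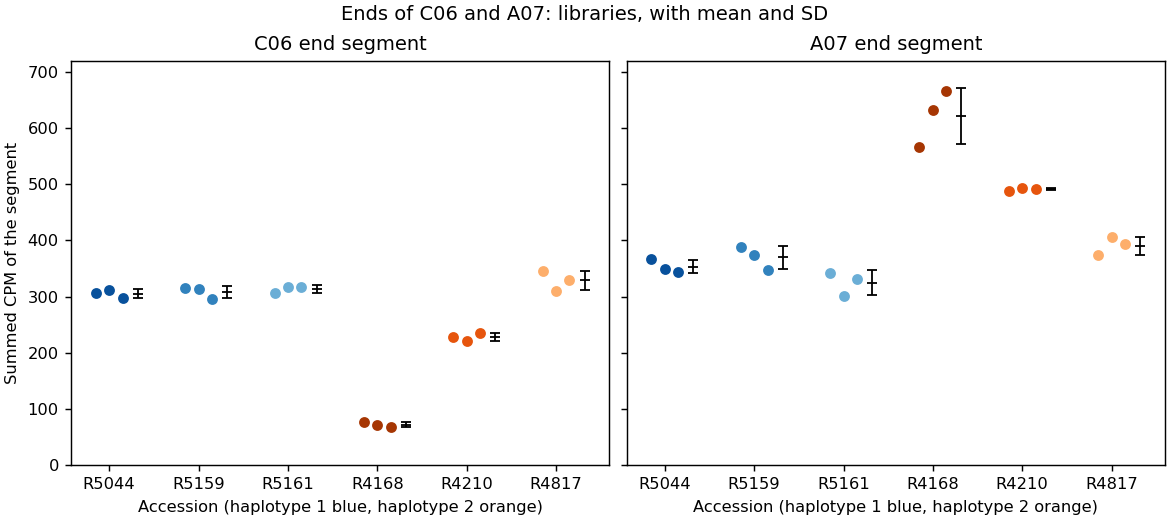
Summed CPM of the C06 end (4541 to 4580, left) and the A07 end (3841 to 3900, right) in each library (points), with the mean and SD of 3 libraries per accession (bars); haplotype 1 is blue and haplotype 2 orange. R4168 sits near 71.6 CPM on the left and 622 CPM on the right, and R4210 is the next accession on both sides.

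Gene by gene, the low level of the C06 end in R4168 was widespread. The median difference from the other accessions was -2.89 on the log2 scale, and 22 of 29 genes lay at -1 or less. In edgeR's single accession calls, a gene must be lower than each of the other 5 accessions at an adjusted p under 0.05. By this rule 14 of 32 tested genes were low in R4168 (background over all tested genes 2.03%). The stretch was chosen for its low values in R4168, so an excess over the background follows from the choice. The largest run of such calls on A07 or C06, 8 neighbouring tested genes from 4550 to 4558, was in this stretch. Another 4 genes from 4543 to 4546 were low together, and 3 more followed at 4592 to 4594.

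Several of these genes were close to 0 in R4168. C06 gene 4557 had 1 count over the 3 libraries (0.0107 ± 0.0186 CPM), against means of 23.9 to 58.7 CPM in the other accessions (edgeR adjusted p at most 4.58e-13). Gene 4556 also had 1 count, against 16.8 to 23.2 CPM (edgeR adjusted p at most 8.59e-12). Gene 4553 had 0 counts, against 2.65 to 4.07 CPM (edgeR adjusted p at most 8.09e-08). Others kept some expression: gene 4554 was at 4.51 ± 0.891 CPM in R4168 and at 12.6 to 47.5 CPM elsewhere, with R4210 the next lowest.

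In R4210 the low genes lay further along. Its window value over 4541 to 4560 was 0.57, against -3.29 in R4168, whereas over 4561 to 4580 it was -2.65, against -2.15 in R4168. Gene 4567 was at 4.36 ± 0.103 CPM in R4210 and 8.10 ± 1.59 CPM in R4168, against 25.8 to 37.8 CPM in the remaining 4 accessions. Of 32 tested genes, 3 were called low in R4210 (4564, 4567 and 4574; background 3.11%). A gene equally low in both accessions is called in neither.

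The raised level of the A07 end in R4168 was broad but moderate. The median difference was 0.86, 38 of 46 genes lay above the median of the other accessions, and 18 did so by 1 or more. Single accession calls by edgeR numbered 4 high of 48 tested (background 1.09%), at 3858, 3860, 3867 and 3876. This stretch too was chosen for its values in R4168, so the count is no independent support. Gene 3858 stood at 44.7 ± 5.19 CPM in R4168 and 21.5 to 27.3 CPM in the others (edgeR adjusted p at most 0.00133). Gene 3867 stood at 22.6 ± 2.61 CPM against 8.50 to 11.8 CPM (edgeR adjusted p at most 0.00118).

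The last 20 numbers of this A07 end followed the haplotype as well as the accession. Over 3881 to 3900 the window values were 1.28 in R4168, 2.46 in R4210 and 1.47 in R4817, against -1.43 in R5044, -1.35 in R5159 and -1.04 in R5161. Over 3861 to 3880, R4168 alone was high, at 0.86, with R4210 at -0.10. In R4210 the 3 genes called high by edgeR (3843, 3882 and 3884; background 1.22%) were not those called in R4168, and 3884 stood at 24.0 ± 2.67 CPM against 4.22 to 9.37 CPM (edgeR adjusted p at most 0.000165).

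Inside the C06 end, 3 neighbouring genes had another pattern. Genes 4547, 4548 and 4549 had means of 30.7, 21.1 and 11.4 CPM in R4210 and of 30.9, 20.9 and 11.6 CPM in R4817. They had 0 counts in every library of R4168 and of the 3 haplotype 1 accessions. The sums, ratios and shares given above for the ends in R4210 and R4817 include these genes. Expression in R4210 and R4817 with at most 3 counts in each of the other 4 accessions was found for 7 genes of C06 (0.295%), 1 gene of A07 (0.0439%) and 29 genes of the genome (0.0571%).

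The other uneven stretch was C06 3301 to 3400, at -0.70 in R5044 and -0.53 in R5159, above the limit for a low window. No A07 window was high in both accessions. Its 105 models summed to 684 ± 40.1 CPM in R5044, 716 ± 38.7 in R5159, 954 ± 19.5 in R5161, 885 ± 31.8 in R4168, 917 ± 60.3 in R4210 and 724 ± 43.2 in R4817. R5044, R5159 and R4817 thus lay below the other 3 accessions, across haplotypes. On A07, the highest window value was 0.42 in R5044, at 601 to 700, and 0.38 in R5159.

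The contrast was sharpest over 3321 to 3340. The sums there were 29.9 ± 1.68 CPM in R5044, 28.9 ± 1.38 in R5159, 42.8 ± 3.17 in R5161, 76.0 ± 7.33 in R4168, 112 ± 13.2 in R4210 and 73.3 ± 1.71 in R4817, so all haplotype 1 accessions lay below all haplotype 2 accessions in this shorter stretch. Gene 3337 was at 0.06 CPM or less in the 3 haplotype 1 accessions and at 3.24, 20.6 and 6.12 CPM in R4168, R4210 and R4817. Gene 3321, at the edge, ran only from 12.6 to 14.8 CPM over the 6 accessions.

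Other short stretches divided the haplotypes. In windows of 20 gene numbers, 1.05% of the A07 and C06 values were at -1 or less and 7.70% at 0.4 or more, against 3.5% and 11.2% over the genome. Over A07 1121 to 1140 (10 genes) the values were 1.20, 1.28 and 0.97 in R4168, R4210 and R4817, and -1.28, -1.27 and -1.60 in R5044, R5159 and R5161. In the order of 3949 such windows of each accession, these were 73rd to 127th from the highest and 103rd to 183rd from the lowest. A07 2881 to 2900 (11 genes) was the reverse, at 0.91, 1.11 and 1.03 in the haplotype 1 accessions and -1.01, -1.09 and -0.96 in the haplotype 2 accessions. R5044 alone was low over A07 3581 to 3600 (12 genes), at -1.81. That stretch holds a run of 5 low calls from 3583 to 3588, in which gene 3583 was at 0.333 ± 0.120 CPM in R5044 and 24.0 to 38.0 CPM in the others (edgeR adjusted p at most 7.35e-13).

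Genes absent in a single accession were few. With at most 3 counts over the 3 libraries of an accession and at least 1 CPM in each of the other 5, there were 39 such cases, 10 on A07 and 29 on C06. By accession, A07 and C06 held 2 and 8 in R5044 (genome 0.838% of eligible genes), 1 and 1 in R5159 (0.597%), 7 and 3 in R5161 (0.523%), 0 and 7 in R4168 (0.736%), 0 and 8 in R4210 (0.653%) and 0 and 2 in R4817 (0.113%). The C06 share was 0.47% in R5044, 0.411% in R4168 and 0.466% in R4210, each below the genome's. All A07 cases were in haplotype 1 accessions, and R5161 held 7 of the 10.

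Some absent genes lay close together. R5044 lacked 5 C06 genes between 3058 and 3072, among them 3058 with 2 counts against 9.16 to 19.5 CPM elsewhere. R4168 lacked 3 C06 genes between 4553 and 4557. It also lacked C06 genes 1383, 1387 and 1406, which lay among expressed genes. Of the 14 models of that stretch with 1 CPM in any accession, 10 reached it in R4168. In R4210, C06 genes 1279 to 1282 formed a run of 4 low calls, with 1281 at 0.174 ± 0.151 CPM against 26.1 to 40.8 CPM in the others (edgeR adjusted p at most 2.66e-07). Runs of at least 3 neighbouring tested genes called in the same direction numbered 2 on A07 and 7 on C06, all low, of 415 over the chromosomes, where C02 alone had 104 and the longest had 26 genes.

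The balance between the chromosomes leaned to C06 in every accession, and more so in haplotype 2. A07 took 45.95% ± 0.766 of the A07 plus C06 counts in R5044, 45.6% ± 1.08 in R5159 and 47.3% ± 0.636 in R5161. It took 43.4% ± 1.48 in R4168, 42.4% ± 1.26 in R4210 and 43.4% ± 1.05 in R4817 (SD, n = 3 libraries each). The accession means did not overlap: 46.3% ± 0.884 in haplotype 1 and 43.1% ± 0.548 in haplotype 2 (SD, n = 3 accessions), a difference of 3.20 percentage points (two-sided exact permutation p = 0.1, the smallest that 3 against 3 can give). On all other chromosomes the A share was 48.7% ± 0.888 and 46.7% ± 1.09 (exact permutation p = 0.2).

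Of the chromosome sums, that of C06 differed more. The sum was 55675 ± 773 CPM for R5044, 54506 ± 2908 CPM for R5159 and 51941 ± 1075 CPM for R5161. In R4168, R4210 and R4817 it summed to 59772 ± 3354, 61479 ± 3893 and 59100 ± 2524 CPM. The haplotype means were 54040 ± 1910 and 60117 ± 1226 CPM without overlap (exact permutation p = 0.1). A07 summed to 45253 to 47332 CPM over the 6 accessions, with means of 46501 ± 857 and 45416 ± 251 CPM that overlapped (exact permutation p = 0.2). With library sizes scaled by TMM the A07 difference was 1446 CPM in place of 1085, without overlap (exact permutation p = 0.1).

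A few abundant C06 genes made up most of the C06 difference. Gene 4289 (BnaC06T0428900ZS) alone accounted for -3770 of the -6077 CPM between haplotype 1 and 2. Genes 4312 (-1304 CPM) and 831 (-1293 CPM) pointed the same way, and gene 1208 the other way (1966 CPM). Without gene 4289 the C06 difference was -2307 CPM (exact permutation p = 0.2). Without the 6 C06 genes that differed most it was -1.41 CPM (exact permutation p = 1.0). These genes were chosen after the data were seen, by the same difference that was then tested again, so both p-values are a description. Leaving out the 1% most abundant models of each chromosome gave 34870.0 ± 629 and 34882 ± 822 CPM on C06 (exact permutation p = 1.0). A07 then gave 33849 ± 654 and 32936 ± 398 CPM, without overlap (exact permutation p = 0.1). The A07 share was then 49.3% ± 0.696 and 48.6% ± 0.673, with overlap (exact permutation p = 0.2).

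On A07 the difference became larger when the genes that differed most were left out. Without gene 1321 (BnaA07T0132100ZS), whose own difference was -1075 CPM, A07 summed to 46485 ± 855 CPM in haplotype 1 and 44325 ± 299.8 in haplotype 2, a difference of 2160 CPM (exact permutation p = 0.1). Without the 6 A07 genes that differed most it was 2633 CPM (exact permutation p = 0.1). With 1 such gene left out of each chromosome the share differed by 2.21 percentage points, and with 6 by 1.53 points, without overlap (exact permutation p = 0.1 for each). With 6 left out, the chromosome sums differed by 2633 CPM on A07 and by -1.41 CPM on C06. The genes left out were chosen by the same haplotype difference, so these changes follow in part from the choice. The p-values without them are a description.

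**Figure D5:**
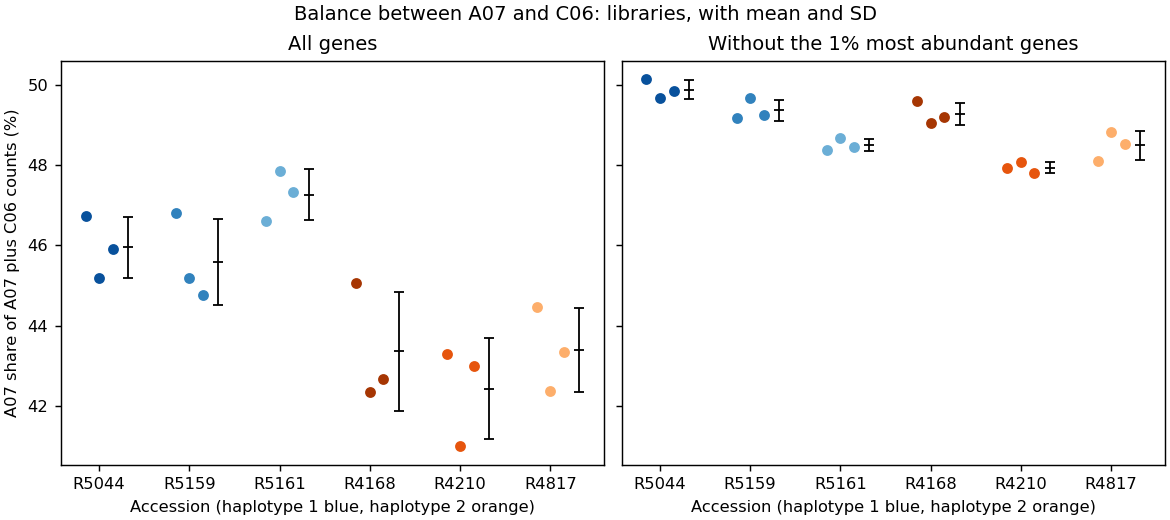
A07 share of the A07 plus C06 counts (%) in each library (points), with the mean and SD of 3 libraries per accession (bars), for all genes (left) and without the 1% most abundant models of each chromosome (right); the vertical axis does not start at 0. On the left the accession means of haplotype 1, 45.6% to 47.3%, lie above those of haplotype 2, 42.4% to 43.4%; on the right they overlap.

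More models were detected in haplotype 2 on both chromosomes. At 1 CPM or more per library, A07 had 1891 ± 20.5 models in haplotype 1 and 1974 ± 15.3 in haplotype 2. C06 had 1959 ± 26.4 and 2040 ± 34.3 models (SD, n = 3 accessions, exact permutation p = 0.1 for each). Neither pair of accession means overlapped. The same count was not made over the other chromosomes, so these values do not set A07 and C06 apart from them. The largest of the 6 values was R4817's on both, at 1989 A07 models and 2074 C06 models.

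In the test of the haplotypes gene by gene, 3 against 3 accession sums by edgeR, genes of both chromosomes passed in both directions. On A07, 187 of 2517 tested genes were higher in haplotype 1 (7.43%; background over all 57827 tested genes 6.13%) and 207 were lower (8.22%; background 7.57%). On C06, 162 of 2623 were higher (6.18%) and 229 lower (8.73%). In either direction the shares were 15.7% and 14.9%, near the 13.7% over all genes. Fold changes of at least 2 were reached by 129 higher and 186 lower genes on A07 (5.13% and 7.39%) and by 103 and 205 on C06 (3.93% and 7.82%), against 4.14% and 6.79% over all genes. The median log2 fold change over all tested genes was 0.03 on A07 and 0.02 on C06, against -0.03 over the genome. With 1 accession left out, between 17 and 223 genes passed on A07 and between 17 and 248 on C06, the fewest without R4210 and the most without R4168.

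The calls were spread along both chromosomes. By window, between 7.02% and 31.4% of tested A07 genes passed (median 14.5%), and up to 33.3% of C06 genes (median 13.6%). The window with the highest share on A07 was 2801 to 2900, where 22 of 70 tested genes passed, 16 of them higher in haplotype 1. On C06 it was 1601 to 1700, with 20 of 60, of which 13 were lower. Whole windows were compared between the haplotypes on another measure, with each gene set against the mean of all 6 accessions. Some windows that do not overlap on this measure overlap by window value. Windows without overlap numbered 9 of 39 with haplotype 1 above and 5 with it below on A07 (23.1% and 12.8%). On C06 they numbered 12 of 46 above and 8 below (26.1% and 17.4%), against 18.4% and 16.6% over the genome. The largest difference between the haplotype means on this measure was 0.46 on the log2 scale, at A07 2501 to 2600.

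Windows of 1 direction adjoined at most in pairs, and the first pair on A07 was 701 to 900, where the 220 models gave sums of 1936 ± 74.2 CPM (R5044), 1876 ± 68.1 CPM (R5159) and 1732 ± 22.5 CPM (R5161). In R4168, R4210 and R4817 they summed to 1382 ± 102, 1373 ± 29.5 and 1477 ± 47.3 CPM, so the haplotypes parted in the sums as well. On C06, 501 to 700 was the first pair with haplotype 1 above, with median differences of 0.19, 0.25 and 0.08 in the haplotype 1 accessions and -0.21, -0.22 and -0.27 in the haplotype 2 accessions (84 genes). Its sums overlapped, at 3556 ± 674, 3127 ± 921 and 2454 ± 481 CPM against 3845 ± 1451, 3370 ± 417 and 2873 ± 720 CPM. C06 101 to 300 was the first pair with haplotype 1 below, at 1814 ± 29.1, 1867 ± 45.3 and 1817 ± 71.2 CPM against 2070 ± 48.6, 2319 ± 11.5 and 2464 ± 60.5 CPM. These stretches were chosen for their separation and carry no test.

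The genes with the most extreme fold changes on each chromosome, among those that passed with at least 1 CPM in each haplotype, were these 4; the files give no gene names for them. BnaA07T0077200ZS (gene 772) had 115.6, 113.6 and 54.0 CPM in R5044, R5159 and R5161, and 11.05, 3.91 and 8.0 CPM in R4168, R4210 and R4817. No library of one haplotype overlapped with the other, with 42.2 CPM the lowest in haplotype 1 and 12.1 CPM the highest in haplotype 2. Its log2 fold change was 3.65 ± 0.52 (SE; edgeR adjusted p = 0.0180). For each of the named genes, the SE was back-calculated as the absolute log2 fold change divided by the square root of edgeR's F statistic.

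BnaA07T0132100ZS (gene 1321) was low in haplotype 1, with 21.0, 17.1 and 10.8 CPM in R5044, R5159 and R5161, and high in haplotype 2, with 1145, 1266 and 862 CPM in R4168, R4210 and R4817. Haplotype 1 libraries ended at 23.0 CPM and haplotype 2 libraries began at 792 CPM. The log2 fold change was -6.02 ± 0.37 (SE; edgeR adjusted p = 0.00836).

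On C06, BnaC06T0057100ZS (gene 571) had 13.0, 16.7 and 12.9 CPM in the haplotype 1 accessions and 1.97, 1.103 and 0.308 CPM in the haplotype 2 accessions. The lowest haplotype 1 library, at 10.8 CPM, lay above the highest haplotype 2 library, at 2.70 CPM. Its log2 fold change was 3.69 ± 0.70 (SE; edgeR adjusted p = 0.0294).

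BnaC06T0428900ZS (gene 4289) had 36.9 ± 17.3, 2.39 ± 1.56 and 5.25 ± 0.952 CPM in R5044, R5159 and R5161. It had 2367 ± 310, 5246 ± 2378 and 3741 ± 1202 CPM in R4168, R4210 and R4817 (SD, n = 3 libraries). The haplotypes did not overlap, although single R4210 libraries ran up to 7923 CPM. Its log2 fold change was -7.98 ± 1.37 (SE; edgeR adjusted p = 0.0243). The 20 numbers around it, 4281 to 4300, had window values of -0.99, -1.33 and -1.20 in the haplotype 1 accessions and of 0.77 in R4168, 2.55 in R4210 and 1.5 in R4817. Of the 4 genes, 1321 alone passed without each accession in turn (edgeR adjusted p 0.0123 to 0.0477). Genes 772, 571 and 4289 each passed in only 2 of these 6 fits. Their highest edgeR adjusted p was 0.0582, 0.104 and 0.0757, each when R4210 was left out.

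Calls that set 1 accession apart from each of the other 5 were more often low than high in 5 of the 6 accessions, all but R4817. A07 had 2535 tested genes and C06 2648. In R5044, 61 A07 and 32 C06 genes were low (2.41% and 1.21%; background 2.38%), and 25 and 15 were high (background 0.879%). In R5159, 47 and 23 were low (background 2.22%) and 21 and 9 high (0.85%). In R5161, which had the most on A07, 85 and 65 were low (3.35% and 2.45%; background 2.88%) and 15 and 31 high (1.13%).

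Among the haplotype 2 accessions, R4210 had the largest percentage of tested C06 genes called low, as it had over all genes. In R4168, 34 A07 and 48 C06 genes were low (1.34% and 1.81%; background 2.03%) and 28 and 14 were high (1.1% and 0.529%; background 1.09%). Of the 48 low C06 genes of R4168, 20 lay in the last window. In R4210, 69 and 62 were low (2.72% and 2.34%; background 3.11%) and 19 and 25 high (1.22%). In R4817, 25 and 17 were low (background 1.06%) and 25 and 19 high (0.92%), the fewest low calls of the 6 accessions on both the A07 and the C06 chromosome.

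Some genes were expressed in a few accessions and absent in the rest. A mean of at least 1 CPM in a subset of accessions with at most 3 counts in each remaining one was found for 50 of 2278 A07 genes (2.19%) and 92 of 2373 C06 genes (3.88%), against 5.17% of 50798 genes. Expression in the 3 haplotype 2 accessions alone was found for 4 A07 and 9 C06 genes (0.176% and 0.379%), against 0.404% over the genome. Expression in the 3 haplotype 1 accessions alone was found for 1 A07 and 4 C06 genes (0.0439% and 0.169%), against 0.102% over the genome. Haplotype 2 patterns thus outnumbered haplotype 1 patterns on the whole genome too, 205 to 52. The difference between these shares was not tested.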

How the data were processed

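Raw counts of reads for each gene model were deposited as a single table of 18 libraries, 3 of each of 6 accessions. Per the submitters' processing notes, the tools were HISAT2 2.2.1 and featureCounts. Build, annotation, strand and multi-mapping settings: not given in the sources used here. Columns were assigned by accession and replicate in their names, and no 2 columns were identical (0 pairs). No identifier matched the 123214 entries of the RefSeq Da-Ae name table (0 matches). Members and lists were chosen with earlier results of these data known.

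CPM was computed from library totals of 21960992 to 41459636 counts. edgeR 4.0.16 (R 4.3.3; quasi-likelihood, TMM, filterByExpr, Benjamini-Hochberg over all tested genes, threshold 0.05) compared 3 against 3 accession sums, and, in a fit of the 18 libraries, all 15 pairs of accessions. Both were tested on simulated data first. Shares and totals had two-sided exact permutation tests. Replicate numbers were not taken to pair libraries. Alternatives were other scalings, filters, pseudocounts, windows, thresholds, DESeq2 1.42.0, the replicate block and leaving out libraries or accessions. Named genes are the highest and the lowest fold change per chromosome among genes past the haplotype test with at least 1 CPM in each haplotype.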

Additional observations from a re-analysis of the deposited data

How the results depend on the processing

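The A07 share and the A07 total kept their sign in all alternatives, but without the 1% most abundant genes the share difference was 0.688 in place of 3.20 points, and the C06 difference -12.4 in place of -6077 CPM (exact permutation p = 1.0). It was -1.41 CPM without the 6 genes that differed most. Ranges over the libraries left out were 2.96 to 3.49 percentage points, 949 to 1217 CPM (A07) and -6716 to -5328 CPM (C06). Over accessions left out they ranged from 2.70 to 3.54 points, 670 to 1526 CPM and -6894 to -5027 CPM. Haplotype calls (394 on A07 and 391 on C06) came to 942 and 1029 with DESeq2, 328 to 442 and 327 to 454 without single libraries, and 17 to 223 and 17 to 248 without single accessions, the lowest without R4210. The cause was not tested.

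Low window values (0) became 1 in windows of 50 gene numbers, 3 at -0.5 and 23 in windows of 20. High values (7) became 3 with a pseudocount of 1 CPM, 4 at a mean of at least 2 CPM, 30 in windows of 50, 1 in windows of 200, 16 at 0.3 and 169 in windows of 20, which were chosen after the data were seen. Without single libraries they were 0 and 5 to 9. The A07 share of the end segments was 89.0% to 90.3% in R4168 and 67.9% to 68.7% in R4210 without single libraries, and 57.6% and 52.7% over the last windows. Absent genes (39) numbered 36 to 43.

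Single accession calls (133, 100, 196, 124, 175 and 86 in R5044, R5159, R5161, R4168, R4210 and R4817) fell at a minimum of 2-fold to 61 in R5159, 121 in R5161, 75 in R4168 and 113 in R4210. Without single libraries they ranged over 96 to 140, 70 to 127, 138 to 208, 77 to 142, 117 to 212 and 57 to 115, with R4168 at 77 and R4817 at 57 without their own replicate 3. The replicate block gave 128, 88, 188, 117, 161 and 81. The numbers were not taken to pair libraries, which was not tested. Same-numbered libraries had correlations of deviations of -0.163 to 0.246 (median 0.0046, 3 of 45 over 0.1). Different-numbered libraries had -0.247 to 0.166 (median -0.0056, 3 of 90 over 0.1). Of 18 libraries, 9 were closest to their own number. Absence means at most 3 counts at this depth and covers counting error only.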
